A study of Mus musculus with 6 samples.

Results

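The 50 genes described here encode the machinery that copies DNA and divides a cell. They were taken as a named list of 50 among the 22548 gene symbols measured. The rule uses no measured value, but the list was drawn up with earlier results of these data known. It was split into 26 genes of DNA replication and the G1/S transition and 24 genes of G2 and mitosis. RNA came from eosinophils grown out of marrow from BALB/c mice (wild-type, aged 4-8 weeks), with 6 libraries in all. Low-density marrow cells were kept for 14 days. Stem cell factor (SCF) and the ligand of FLT3 were present for the first 4 days, each at 100 ng/ml, and were then replaced by IL-5 (10 ng/ml). All 6 groups share that treatment. On the last day cells were left untreated or were given IL-4 or IL-33, both at 10 ng/ml, and were harvested 1 h or 4 h later, which makes 1 library per group. Such a culture is expanded from progenitors and is not sorted, so dividing precursors and other marrow cells can add to each library.

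A cell that commits to division frees E2F transcription factors from the retinoblastoma protein, and E2F switches on the genes for nucleotide supply, origin licensing and the replication fork. Later in the cycle, complexes that hold MYB and FOXM1 switch on the genes for the mitotic cyclins, kinases and spindle. Eosinophils mature from dividing marrow progenitors under IL-5 and leave the cycle as they mature, so transcripts of these genes in a marrow culture mark cells that still divide or have lately stopped. IL-4 signals through STAT6, and IL-33 signals through its receptor ST2 to NF-kB and MAP kinases.

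Levels are FPKM, fragments scaled by transcript length and library size, summed over the transcripts of a gene. Change is log2((treated + 1)/(untreated + 1)) within 1 deposited table, over genes at 1 FPKM or more in either library. A gene is called higher or lower when that change is at least 1 in size. With 1 library per group there is no spread between replicates, so no p-value or error of a group is given, and a difference between libraries cannot be told apart from a difference between cultures. The low values of the tables imply 14300000 to 28100000 reads per library, and 67 to 6650 reads per gene for the 50 genes. Such estimates follow the scale of each table. The same untreated library gave 19300000 and 20400000 at 1 h, and 14300000 and 15000000 at 4 h, when paired with IL-4 and IL-33. Intervals printed beside ratios are exact 95% Clopper-Pearson intervals from those estimated reads and cover counting error only. The IL-33 tables carry the untreated libraries at 0.945 (1 h) and 0.947 (4 h) times their values in the IL-4 tables. Levels across libraries are therefore given with untreated cells as in the IL-4 tables, and each change uses the untreated column of its own table. Printed levels thus show a smaller rise or a larger fall with IL-33 than the change does. The deposited loci of 9 of the 50 genes (Mcm7, Gins2, Lig1, Tk1, Ccne2, Ccna2, Cdc20, Kif20a and Nusap1) overlap another gene, and no source used here says that counting used strand, so their reads may be shared.

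The label of the cultures was checked against cell markers. Untreated 4 h cells held 47233 FPKM of the granule gene Prg2, 2027 of Epx (eosinophil peroxidase) and 437 of Ccr3 (the eotaxin receptor), and all 9 eosinophil markers were at 10 FPKM or more in each of the 6 libraries. Genes listed as markers of other cells were present too, and bulk RNA does not show whether eosinophils or other cells carried them. The neutrophil granule gene Ngp stood at 748 FPKM, and Emr1 (F4/80), from the macrophage list, at 291. The mast cell and basophil gene Hdc stood at 102, the platelet-lineage gene Pf4 at 146 and Gata2, from the progenitor list, at 53.9. The erythroid genes Car1 and Hbb-b1 and the mast cell protease Mcpt4 were listed at 0 in that library. In such mixed bulk RNA, fewer cells of a type and less RNA per cell cannot be told apart.

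All 50 genes were at 1 FPKM or more in 5 of the 6 libraries, and in IL-33 4 h cells 49 were, with the licensing factor Cdc6 at 0.997. Their summed level was 1070.0 FPKM in untreated 1 h cells and 1181 in untreated 4 h cells. IL-4 cells had 1065 at 1 h and 1198 at 4 h, and IL-33 cells had 1127 at 1 h and 923 at 4 h. On the scale used for the IL-33 changes, untreated cells had 1011 at 1 h and 1119 at 4 h. These sums are 0.122% to 0.163% of all FPKM in a library, lowest in IL-33 4 h cells and highest in untreated 4 h cells. The sliding clamp gene Pcna had the highest level of the 50 in every library, at 118 to 161 FPKM. In untreated 4 h cells the mitotic ubiquitin conjugating enzyme gene Ube2c (77.1), the survivin gene Birc5 (59.8), Top2a (54.7) and Ccnb2 (54.3) followed. The checkpoint kinase gene Chek1 was lowest there at 1.39. The median of the 50 was 19.1 FPKM there, above 81.4% of all genes at any level, and 37 of 50 were at 10 FPKM or more. The plot of levels shows how the 26 replication genes and the 24 mitosis genes were placed in the 6 libraries.

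**Figure D1:**
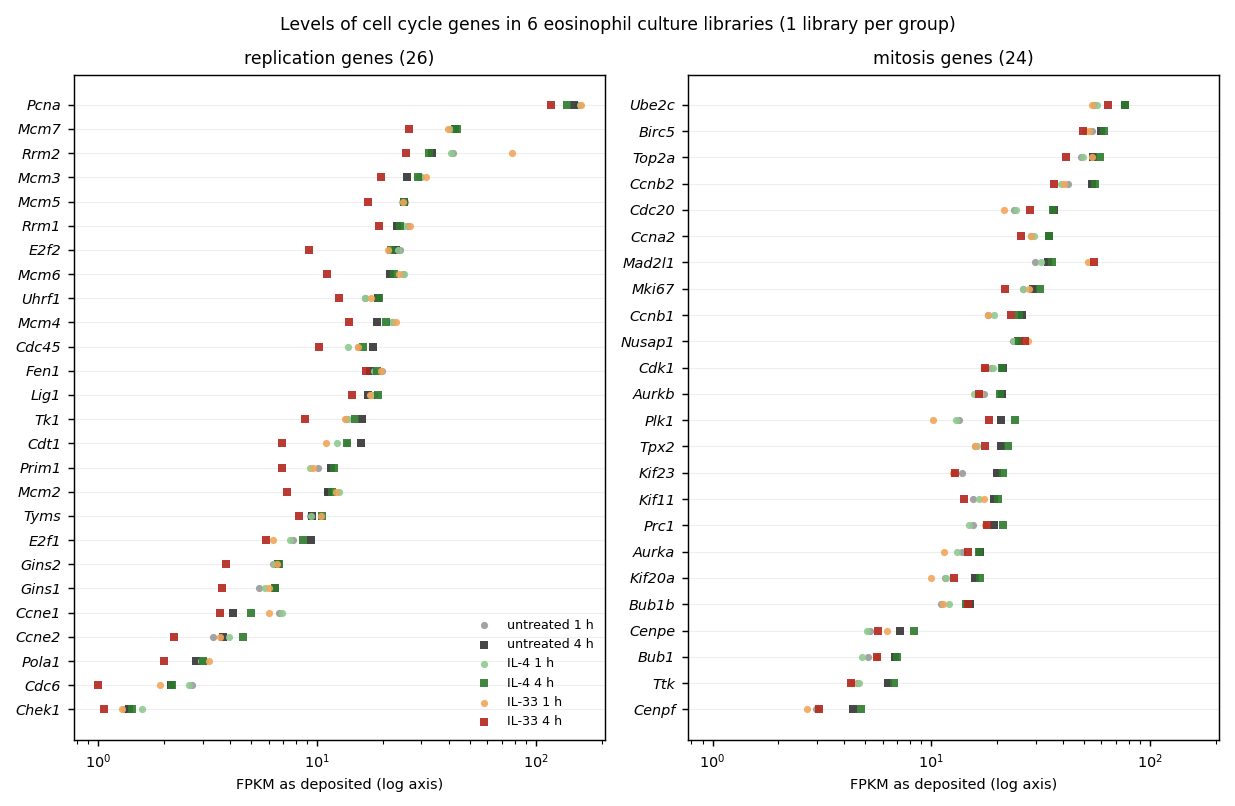
FPKM of each gene (log axis) in the 6 libraries, replication genes on the left and mitosis genes on the right, ordered by the untreated 4 h level. Circles are 1 h and squares 4 h, with untreated values from the IL-4 tables; most replication genes have the IL-33 4 h library (red squares) as their lowest value, while Mad2l1 has it as its highest at 55.5 FPKM.

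The list does not use sequence, so the promoters were read for the motifs through which E2F and the MYB-FOXM1 complexes are known to act. RefSeq start sites on GRCm38.p6 were matched by symbol for 42 of 50 genes, and the 250 bases before each start were searched on both strands. Where a gene has several starts, a match in any of its windows counts. Motifs counted together can thus lie in different windows of a gene. The E2F motif was any of TTTCCCGC, TTTGGCGC, TTTCGCGC or TTTGCCGC. The cell cycle homology region (CHR) was TTTGAA or TTCGAA, and the CCAAT box, bound by NF-Y, was CCAAT. None of these motifs contains another, although matches to neighbouring E2F motifs can overlap. An E2F motif was found for 6 of 22 replication genes (27.3%) and 1 of 20 mitosis genes (5%). The shares were 2.16% of 27025 genes with a promoter and 4.12% of the 7834 of them measured at 1 FPKM or more. The 6 replication genes were Mcm5, Mcm6, Mcm7, Cdc6, Pola1 and Uhrf1, and the mitosis gene was Cdk1. A CHR together with a CCAAT box was found for 9 of 20 mitosis genes (45%) and 4 of 22 replication genes (18.2%), beside 6.85% of the measured genes. A CCAAT box, with or without a CHR, was found for 17 of 20 mitosis genes (85%), 13 of 22 replication genes (59.1%) and 40.9% of the measured genes. A match is a description of letters and shows no binding, and no match says only that the letters are not in this window.

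The helicase genes Mcm5 (chr8:75109259-75109508, plus strand) and Mcm6 (chr1:128359706-128359955, minus strand) are shown for the replication arrangement, the kinase gene Cdk1 (chr10:69352913-69353162, minus strand) and the spindle motor gene Kif11 (chr19:37376132-37376381, plus strand) for the mitotic one. Rrm2 (chr12:24708004-24708253, plus strand) and Mad2l1 (chr6:66534971-66535220, plus strand) are shown because their levels moved apart from the others with IL-33. Each run ends at the base before the start, and capitals mark every match to the motifs above on either strand.
Mcm5: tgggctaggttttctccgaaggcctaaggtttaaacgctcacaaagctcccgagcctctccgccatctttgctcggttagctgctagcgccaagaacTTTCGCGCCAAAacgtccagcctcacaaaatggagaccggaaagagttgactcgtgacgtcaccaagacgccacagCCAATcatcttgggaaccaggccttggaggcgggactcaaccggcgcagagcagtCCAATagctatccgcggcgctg
Mcm6: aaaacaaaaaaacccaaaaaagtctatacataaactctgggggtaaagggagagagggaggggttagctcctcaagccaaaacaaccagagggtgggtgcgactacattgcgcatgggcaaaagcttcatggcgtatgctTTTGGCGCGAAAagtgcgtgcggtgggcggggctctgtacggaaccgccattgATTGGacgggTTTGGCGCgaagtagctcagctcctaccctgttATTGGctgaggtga
Cdk1: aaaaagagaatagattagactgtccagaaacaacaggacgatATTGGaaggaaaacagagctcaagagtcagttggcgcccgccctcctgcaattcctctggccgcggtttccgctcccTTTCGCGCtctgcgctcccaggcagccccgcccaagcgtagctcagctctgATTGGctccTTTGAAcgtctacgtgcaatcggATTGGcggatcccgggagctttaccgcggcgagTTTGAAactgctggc
Kif11: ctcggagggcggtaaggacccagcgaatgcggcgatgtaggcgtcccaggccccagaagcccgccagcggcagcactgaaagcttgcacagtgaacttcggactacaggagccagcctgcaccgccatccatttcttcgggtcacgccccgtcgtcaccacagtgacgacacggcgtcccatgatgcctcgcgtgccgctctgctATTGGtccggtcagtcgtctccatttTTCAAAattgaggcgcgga
Rrm2: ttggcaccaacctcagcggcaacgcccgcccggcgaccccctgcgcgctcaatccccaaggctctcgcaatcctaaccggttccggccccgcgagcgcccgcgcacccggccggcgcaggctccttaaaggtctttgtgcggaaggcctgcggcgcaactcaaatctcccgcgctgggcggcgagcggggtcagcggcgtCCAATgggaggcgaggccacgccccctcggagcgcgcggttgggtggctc
Mad2l1: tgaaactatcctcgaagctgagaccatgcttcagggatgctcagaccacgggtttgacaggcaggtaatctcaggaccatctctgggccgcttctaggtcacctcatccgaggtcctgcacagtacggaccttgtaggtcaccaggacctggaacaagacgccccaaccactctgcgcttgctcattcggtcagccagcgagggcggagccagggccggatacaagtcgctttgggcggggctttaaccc
In Mcm5 the overlapping E2F matches began 153 and 149 bases before the start. In Mcm6 they began 110, 106 and 47 bases before it, the outer pair overlapping each other. Cdk1 held an E2F match at 131 bases, CHR matches at 71 and 15 bases and CCAAT boxes at 208, 80 and 48 bases, while Kif11 paired 1 CHR at 19 bases with 1 CCAAT box at 45. The Rrm2 window held only a CCAAT box, 50 bases before the start, and the Mad2l1 window held no match.

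After 4 h of IL-33 nearly all of the replication genes stood below their untreated level, and the mitosis genes did so by less. E2f2, an activator of S-phase genes, went from 21.7 to 9.19 FPKM (log2 change -1.15) and the licensing factor Cdt1 from 15.1 to 6.89 (-1.03). These 2 of 50 were lower by the rule, beside a background of 1.38% of 10803 genes, and 0 of 50 were higher, beside 4.15%. At a looser limit of 1.5-fold, 10 of 50 were lower (background 7.31%), all 10 of them replication genes, and 1 was higher (background 8.04%), the spindle checkpoint gene Mad2l1. The change was below 0 for 46 of 50, beside 53.5% of all genes. The median was -0.30 for the 50 and -0.03 for all genes, -0.48 for the 26 replication genes (25 below 0, with Fen1 at 0.01 the exception) and -0.21 for the 24 mitosis genes (21 below 0). The counting interval of the ratio lay below 1 for 38 genes, above 1 for Mad2l1 and Nusap1, and held 1 for 10. Intervals were computed for the 50 genes only, so these counts have no share over all genes beside them. All 50 passed the filter on low values in each comparison. Against the untreated library of 1 h in place of 4 h, the replication median was -0.46 but the mitosis median was 0.17, so the sign of the mitosis change depends on which untreated library is used. With that library Cdt1 no longer passed the rule (-0.83) and Mcm6 did (-1.01).

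**Figure D2:**
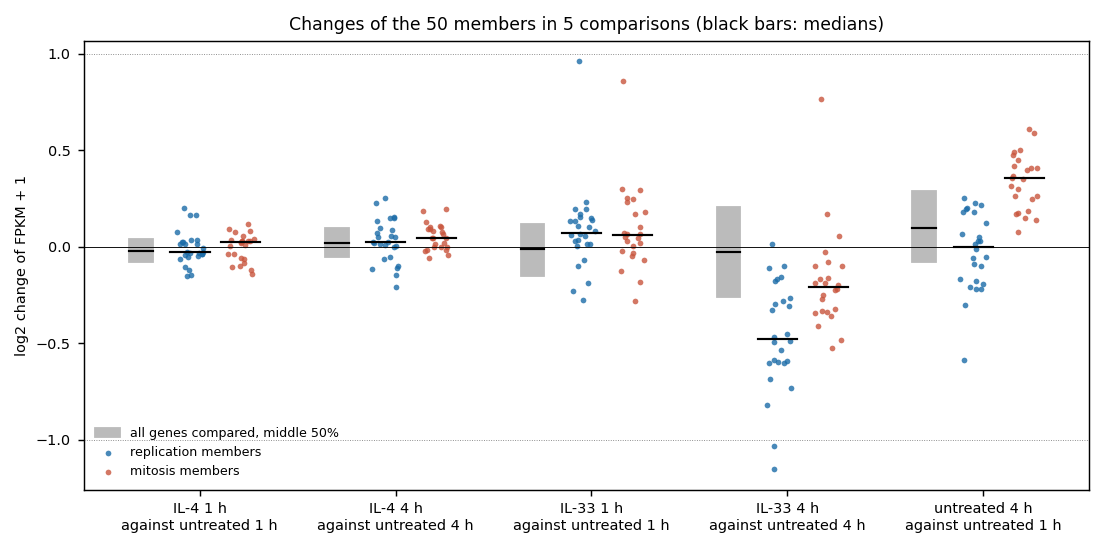
Log2 change of each of the 50 genes in 5 comparisons, with replication genes in blue, mitosis genes in red, black bars at the medians and grey boxes for the middle 50% of all genes compared. The IL-4 columns stay between -0.21 and 0.25, while with IL-33 at 4 h the replication median is -0.48 and in untreated cells over time the mitosis median is 0.35.

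Of the G1/S controls, E2f2 had the largest change. Levels are given here and below in the order untreated, IL-4, IL-33. E2f2 (mm9 chr4:135728308-135751971 as deposited) stood at 23.9, 23.4 and 21 FPKM at 1 h and 22.9, 21.8 and 9.19 FPKM at 4 h. Its 5 other libraries lay within 21.0 and 23.9 FPKM, and IL-33 4 h cells alone were far below them, at a ratio of 0.424 (counting interval 0.393 to 0.458). E2f1, its close relative, stood at 7.72, 7.54 and 6.29 FPKM at 1 h and 9.38, 8.60 and 5.82 FPKM at 4 h, a 4 h IL-33 change of -0.53. Uhrf1, which carries DNA methylation through replication, stood at 16.6, 16.5 and 17.7 FPKM at 1 h and 18.9, 19.2 and 12.7 FPKM at 4 h (-0.47). IL-33 4 h cells were lowest for both, and the gap was smaller than for E2f2. The cyclin E genes drive entry into S phase and were low throughout. Ccne1 stood at 6.71, 6.91 and 6.01 FPKM at 1 h and 4.14, 5.01 and 3.58 FPKM at 4 h, and Ccne2 at 3.33, 3.97 and 3.59 FPKM at 1 h and 3.71, 4.60 and 2.21 FPKM at 4 h. For Ccne1 the main step was between the untreated libraries and not with IL-33 (4 h change -0.10), whereas Ccne2 changed by -0.49. Chek1, the replication checkpoint kinase, stayed between 1.06 and 1.58 FPKM in the 6 libraries, and its 4 h interval held a ratio of 1. The group's median 4 h change with IL-33 was -0.48.

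The 5 origin factors were the group with the lowest median, -0.60, and all 5 were lower by at least 1.5-fold after 4 h of IL-33. Their summed level went from 46.6 to 25.6 FPKM. Cdt1 and Cdc6 load the MCM ring onto origins. Cdt1 (mm9 chr8:125091914-125097030 as deposited) stood at 13.8, 12.3 and 10.9 FPKM at 1 h and 16, 13.6 and 6.89 FPKM at 4 h, with a 4 h IL-33 ratio of 0.456 (counting interval 0.4 to 0.52). Cdt1 was also the gene with the largest drop in the IL-4 comparisons, at -0.15 and -0.21, far short of the rule. Cdc6 stood at 2.67, 2.59 and 1.91 FPKM at 1 h and 2.15, 2.16 and 0.997 FPKM at 4 h (-0.60 at 4 h with IL-33), at levels where the pseudocount damps the change. Cdc45 and the GINS proteins turn the loaded ring into an active helicase. Cdc45 stood at 15.4, 13.8 and 15.4 FPKM at 1 h and 18.1, 16.2 and 10.3 FPKM at 4 h (-0.69). Gins1 stood at 5.45, 5.78 and 6.03 FPKM at 1 h and 6.39, 6.44 and 3.67 FPKM at 4 h (-0.59), and Gins2 at 6.26, 6.34 and 6.57 FPKM at 1 h and 6.61, 6.69 and 3.83 FPKM at 4 h (-0.59). In each of the 5 the IL-33 4 h library was the lowest of the 6.

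The 6 MCM genes encode the subunits of the replicative helicase that opens DNA ahead of the fork. All 6 stood below their untreated level after 4 h of IL-33, with a median of -0.47 and a summed level of 137 and then 95.4 FPKM, and none passed the rule. The change ran from -0.30 for Mcm3 to -0.82 for Mcm6. Mcm6 (mm9 chr1:130228167-130256233 as deposited), whose promoter is printed above, stood at 24.7, 24.9 and 23.6 FPKM at 1 h and 21.4, 22.6 and 11.1 FPKM at 4 h, a ratio of 0.544 (counting interval 0.496 to 0.598). Mcm7 stood at 42, 40.5 and 39.8 FPKM at 1 h and 42.9, 43.4 and 26.4 FPKM at 4 h (-0.60). Both were lower by at least 1.5-fold, and the other MCM genes were not. Mcm3 stood at 30.0, 29.2 and 31.6 FPKM at 1 h and 25.8, 28.8 and 19.7 FPKM at 4 h, and Mcm5 at 25.1, 24.5 and 24.8 FPKM at 1 h and 24.9, 24.9 and 17 FPKM at 4 h (-0.45). Mcm4 and Mcm2 changed by -0.33 and -0.49, and Mcm2, the lowest of the 6, stood at 11.1, 12.6 and 12.2 FPKM at 1 h and 11.2, 11.7 and 7.31 FPKM at 4 h. At 1 h with IL-33 the 6 lay between 0.00 and 0.19, all on the upper side of 0.

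The enzymes of the fork and of nucleotide supply moved less, with medians of -0.26 and -0.24 after 4 h of IL-33. Pcna, the clamp that holds polymerases on DNA, stood at 155, 159 and 161 FPKM at 1 h and 149.5, 138 and 118 FPKM at 4 h (-0.26). Fen1, the flap nuclease of Okazaki fragments, stood at 19.8, 18.1 and 19.6 FPKM at 1 h and 17.4, 18.7 and 16.6 FPKM at 4 h. It was the one replication gene not below 0 (0.01, from 16.5 FPKM on the scale used for the IL-33 changes). Lig1, the ligase that seals those fragments, stood at 18.2, 17.6 and 17.5 FPKM at 1 h and 17, 19 and 14.4 FPKM at 4 h (-0.16). The primase gene Prim1 was apart from these, at 10.1, 9.29 and 9.61 FPKM at 1 h and 11.5, 12 and 6.88 FPKM at 4 h (-0.60). Its partner in the priming complex, Pola1, stood at 3.07, 2.94 and 3.19 FPKM at 1 h and 2.79, 3.02 and 2.00 FPKM at 4 h (-0.28). Among the nucleotide genes, thymidine kinase Tk1 stood at 13.6, 13.8 and 13.5 FPKM at 1 h and 16.1, 14.9 and 8.76 FPKM at 4 h (-0.73, counting interval of the ratio 0.495 to 0.672). The ribonucleotide reductase subunit Rrm1 stood at 26.1, 24.9 and 26.6 FPKM at 1 h and 23.1, 23.9 and 19.2 FPKM at 4 h (-0.18), and thymidylate synthase Tyms at 9.23, 9.40 and 10.4 FPKM at 1 h and 9.44, 10.6 and 8.23 FPKM at 4 h (-0.11). The other subunit, Rrm2, had a course of its own that is given with the 1 h comparison.

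The cyclin-CDK genes of S phase and mitosis had a median 4 h IL-33 change of -0.26. Cdk1, the kinase that drives mitotic entry, stood at 18.7, 19.1 and 17.4 FPKM at 1 h and 21.2, 21.2 and 17.5 FPKM at 4 h (-0.19). Its partners Ccnb1 and Ccnb2 differed from each other. Ccnb1 stood at 18.2, 19.3 and 18.1 FPKM at 1 h and 26, 25.2 and 23.2 FPKM at 4 h (-0.08), and Ccnb2 at 42.2, 39.1 and 40.6 FPKM at 1 h and 54.3, 55.9 and 36.5 FPKM at 4 h (-0.48). Cyclin A, Ccna2, which acts in both S phase and G2, stood at 28.7, 29.5 and 28.5 FPKM at 1 h and 34.7, 34.6 and 25.8 FPKM at 4 h (-0.33). Ccnb2 and Ccna2 had their lowest level in IL-33 4 h cells, and Cdk1 and Ccnb1 did not. Top2a, which untangles chromosomes, stood at 48.5, 49.5 and 54.1 FPKM at 1 h and 54.7, 58.9 and 41.3 FPKM at 4 h (-0.32). The proliferation marker Mki67, which coats mitotic chromosomes, stood at 26.3, 26.4 and 28 FPKM at 1 h and 29.3, 31.5 and 21.7 FPKM at 4 h (-0.34). Both were lowest in IL-33 4 h cells.

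The 4 mitotic kinase genes, counting survivin with the Aurora B complex it belongs to, had a median of -0.15, the smallest of the role groups. Birc5 stood at 54.2, 50.5 and 52.8 FPKM at 1 h and 59.8, 61.6 and 49.3 FPKM at 4 h (-0.20), and Aurkb at 17.5, 15.8 and 16.7 FPKM at 1 h and 21, 20.6 and 16.5 FPKM at 4 h (-0.25). Plk1, which acts from mitotic entry to cell separation, stood at 13.4, 13 and 10.2 FPKM at 1 h and 20.9, 24.1 and 18.5 FPKM at 4 h (-0.10). Aurka, the kinase of the spindle poles, stood at 13.8, 13.1 and 11.4 FPKM at 1 h and 16.7, 16.5 and 14.7 FPKM at 4 h (-0.10). Plk1 and Aurka had their lowest level in IL-33 1 h cells, with 1 h changes of -0.28 and -0.18, and at 4 h their intervals held a ratio of 1.

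The spindle checkpoint and anaphase genes split. Mad2l1, which encodes the checkpoint protein MAD2 that holds back anaphase, stood at 29.8, 31.6 and 51.9 FPKM at 1 h and 34, 35.6 and 55.5 FPKM at 4 h (mm9 chr6:66485461-66490985 as deposited). It had its highest levels in the 2 IL-33 libraries, at ratios of 1.84 at 1 h (counting interval 1.71 to 1.99) and 1.72 at 4 h (1.59 to 1.86), while untreated and IL-4 cells lay between 29.8 and 35.6 FPKM. The log2 changes of 0.86 and 0.77 fell short of the rule. No other gene of the 50 was above its untreated level by 1.5-fold at both times. Bub1b, the checkpoint partner of MAD2, stood at 11.1, 12.1 and 11.3 FPKM at 1 h and 15, 14.4 and 14.8 FPKM at 4 h. Its 4 h change with IL-33 was 0.05, from 14.2 FPKM on the scale used for the IL-33 changes. Bub1 stood between 4.80 and 6.95 FPKM in the 6 libraries (-0.17). Ttk, the kinase that starts the checkpoint, stood at 4.56, 4.69 and 4.33 FPKM at 1 h and 6.37, 6.79 and 4.29 FPKM at 4 h (-0.41). Cdc20, the activator of the anaphase ligase that MAD2 inhibits, stood at 23.8, 24.4 and 21.4 FPKM at 1 h and 36.3, 35.9 and 28.4 FPKM at 4 h (-0.27). Ube2c, the ubiquitin conjugating enzyme of that ligase, stood at 55.2, 57.3 and 54.1 FPKM at 1 h and 77.1, 77 and 63.9 FPKM at 4 h (-0.19). With Mad2l1 in the sum, the level of the 6 genes went from 166 to 173 FPKM, the only role group whose sum was not lower.

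The 8 genes of spindle motors, kinetochore and midzone had a median of -0.22. Kif11, the motor that parts the spindle poles, stood at 15.4, 16.5 and 17.5 FPKM at 1 h and 19.4, 20.1 and 14.1 FPKM at 4 h (-0.36). Kif23, a motor of the midzone and cell separation, stood at 13.8, 12.6 and 12.6 FPKM at 1 h and 20.0, 21.4 and 12.8 FPKM at 4 h (-0.52, the largest drop among the mitosis genes). Kif20a, another midzone motor, stood at 11.6, 11.6 and 9.93 FPKM at 1 h and 15.8, 16.7 and 12.7 FPKM at 4 h (-0.22). Tpx2, Prc1 and Nusap1 organise spindle microtubules. Tpx2 stood at 15.9, 16.2 and 15.8 FPKM at 1 h and 20.8, 22.5 and 17.5 FPKM at 4 h (-0.16), and Prc1 at 15.5, 14.8 and 17.6 FPKM at 1 h and 19.3, 21.2 and 17.9 FPKM at 4 h (-0.03). Nusap1 stood at 23.7, 24 and 27.6 FPKM at 1 h and 25, 25.3 and 26.8 FPKM at 4 h, highest in the 2 IL-33 libraries (0.29 and 0.17). The kinetochore genes were lower in level. Cenpe stood at 5.23, 5.07 and 6.31 FPKM at 1 h and 7.19, 8.31 and 5.68 FPKM at 4 h (-0.23), and Cenpf at 2.96, 3.04 and 2.72 FPKM at 1 h and 4.40, 4.76 and 3.07 FPKM at 4 h (-0.35). Ratios for all 50 genes with their counting intervals are drawn in the plot of IL-33 ratios.

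**Figure D3:**
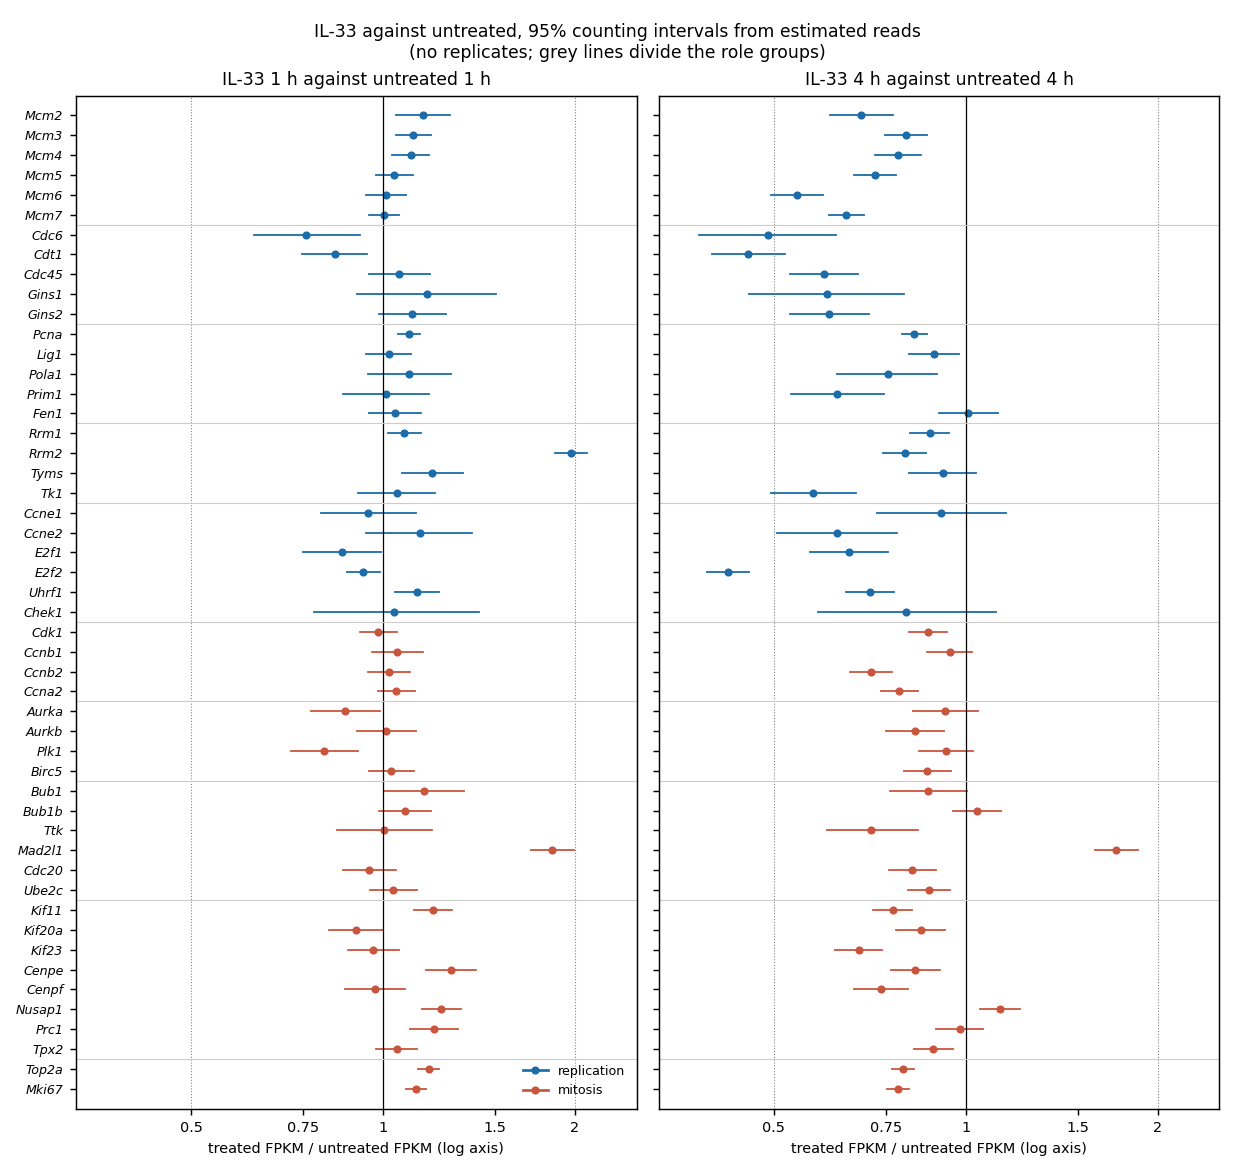
Ratio of IL-33 to untreated FPKM (log axis) for each gene at 1 h (left) and 4 h (right), with 95% counting intervals from estimated reads and no replicate error; dotted lines mark 0.5 and 2. At 4 h nearly all replication genes (blue) lie left of 1, with E2f2 at 0.424 and Cdt1 at 0.456, and Mad2l1 is farthest to the right at 1.72.

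After 1 h of IL-33 Rrm2 and Mad2l1 stood apart from the other 48 genes, whose changes lay between -0.28 and 0.30. Rrm2, the regulatory subunit of ribonucleotide reductase that limits dNTP supply, stood at 41.7, 41 and 77.8 FPKM at 1 h and 33.7, 32.5 and 25.6 FPKM at 4 h (mm9 chr12:25393118-25399011 as deposited). Its IL-33 1 h library was the highest of the 6, at a ratio of 1.97 to untreated (counting interval 1.86 to 2.09), and by 4 h the ratio was 0.802 (0.741 to 0.868). Its partner Rrm1 changed by 0.11 at 1 h. By the rule 0 of 50 were higher, beside 2.36% of 10616 genes, and 0 lower, beside 0.669%. At 1.5-fold, 0 of 50 were lower (background 2.77%) and 2 were higher (background 4.75%), Rrm2 (0.96) and Mad2l1 (0.86). Among genes at 5 FPKM or more in the higher library, the limit for naming the largest changes here and below, Cenpe (0.30), Nusap1 (0.29) and Prc1 (0.25) came next. The lowest changes were those of Plk1 (-0.28), Cdt1 (-0.23), E2f1 (-0.19), Aurka (-0.18) and Kif20a (-0.13), and below that limit Cdc6 stood at -0.27. The median was 0.07 for the 50, 0.07 for replication, 0.06 for mitosis and -0.01 for all genes, and 12 of 50 were below 0 (background 52.4%). The counting interval of the ratio lay above 1 for 16 genes, below 1 for 6 and held 1 for 28, again with no share over all genes computed. Rrm2 against the untreated library of 4 h in place of 1 h changed by 1.26, which passes the rule.

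The 4 h change with IL-33 was below the 1 h change for 48 of 50 genes, beside 50.3% of all genes. That held for 26 of 26 replication genes and 22 of 24 mitosis genes, with Plk1 and Aurka the exceptions. The median step from 1 h to 4 h was -0.56 for replication, -0.25 for mitosis and 0.00 for all genes. Above 0 at 1 h and below 0 at 4 h were 34 of the 50 (background 20.8%). A further 12 were below 0 at both times (background 32.6%), 4 were above at both (background 26.7%) and 0 were below first and above later (background 20%). The 4 above at both times were Mad2l1, Nusap1, Bub1b and Fen1. Each time has its own untreated library, and the levels of those libraries differ (given further on).

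**Figure D4:**
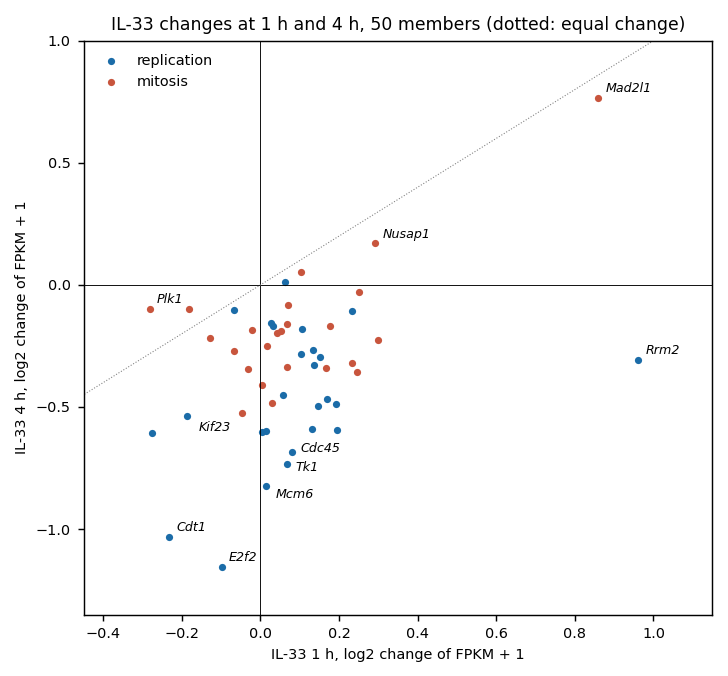
Log2 change with IL-33 at 1 h (horizontal) against that at 4 h (vertical) for the 50 genes, replication in blue and mitosis in red; the dotted line marks equal change. Of the 50 points 48 lie below the line, Rrm2 moves from 0.96 to -0.31, and Mad2l1 stays at 0.86 and 0.77.

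With IL-4 the 50 genes stayed within -0.15 and 0.20 at 1 h and within -0.21 and 0.25 at 4 h. At 1 h 0 of 50 were higher (background 0.47%) or lower (background 0.358%), and at 4 h 0 were higher (background 0.646%) or lower (background 0.351%). At 1.5-fold the counts were also 0 at both times (background 0.828% higher and 0.602% lower at 1 h, 1.51% and 0.618% at 4 h). The medians were 0.01 and 0.04, beside -0.02 and 0.02 for all genes. At 1 h Mcm2 (0.17), Bub1b (0.12), Kif11 (0.09), Mad2l1 (0.08) and Ccnb1 (0.08) were at the upper end, and Cdt1 (-0.15), Cdc45 (-0.15), Aurkb (-0.14), Fen1 (-0.12) and Kif23 (-0.12) at the lower. At 4 h the upper end held Ccne1 (0.23), Plk1 (0.19), Cenpe (0.19), Mcm3 (0.15) and Lig1 (0.15), and the lower end Cdt1 (-0.21), Cdc45 (-0.15), Pcna (-0.11), E2f1 (-0.11) and Tk1 (-0.10). Below 5 FPKM, Ccne2 changed by 0.20 at 1 h and 0.25 at 4 h. The counting interval held a ratio of 1 for 49 of 50 genes at 1 h, with 1 above. At 4 h it held 1 for 38 of 50, with 10 above and 2 below. No share over all genes was computed for these counts. With no replicate library, these values do not show that IL-4 leaves the genes as they were.

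The 2 cytokines were then compared directly, by the difference of their changes, which share an untreated library. At 4 h E2f2 was lower with IL-33 by the rule (-1.09), 1 of 50 beside a background of 1.07%, and 0 were higher (background 3.66%). At 1.5-fold 11 were lower (background 6.94%) and 1 was higher (background 6.98%). Mcm6 (-0.89), Cdt1 (-0.82), Prim1 (-0.65) and Tk1 (-0.63) followed, and Mad2l1 (0.70), Nusap1 (0.16) and Bub1b (0.11) were the 3 genes above 0. The difference was below 0 for 26 of 26 replication genes and 21 of 24 mitosis genes (background 57.9%), with medians of -0.48 and -0.26 beside -0.06 for all genes. At 1 h 0 of 50 were higher (background 2.34%) or lower (background 0.661%). At 1.5-fold 2 were higher (background 4.73%). Rrm2 (0.99) and Mad2l1 (0.78) led, then Cenpe (0.34), Prc1 (0.31) and Nusap1 (0.27), and the lowest were Plk1 (-0.24), E2f1 (-0.16), Kif20a (-0.13), Aurka (-0.12) and Ccne1 (-0.10).

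The untreated libraries themselves differed over time, on the mitosis side. Untreated 4 h cells stood above untreated 1 h cells for 24 of 24 mitosis genes and 13 of 26 replication genes (background 64.6% above 0). The medians were 0.35 and 0.00, beside 0.10 for all genes, and of the mitosis genes Nusap1 alone (0.08) was under that median. By the rule 0 of 50 were higher (background 0.879%) and 0 lower (background 1.56%). At 1.5-fold Plk1 (0.61) and Cdc20 (0.59) were higher (background 5.9%) and Ccne1 (-0.59) was lower (background 3.63%). Kif23 (0.50), Ccnb1 (0.49) and Ube2c (0.48) followed at the upper end, and Rrm2 (-0.30), Mcm4 (-0.22), Mcm3 (-0.21) and Mcm6 (-0.20) at the lower. This comparison crosses tables that were normalised separately. Of 10 progenitor markers 6 passed the filter, and 5 of these were above 0 (background 64.6%) and 1 below (-0.18). Gfi1 (1.41), Cd34 (0.81), Kit (0.78) and Myb (0.72) had the largest rises. The summed level of the 10 progenitor markers was 85.5 FPKM at 1 h and 111 at 4 h. Their part in the mitosis difference was not tested.

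Other genes of the same pathways were read from 5 lists. With IL-33 at 4 h, 53.5% of all genes were below 0, 4.15% were higher and 1.38% lower, with a median of -0.03. Of 37 further replication genes compared at 4 h with IL-33, 0 passed the rule in either direction, 36 were below 0 and the median was -0.27. Dck, which salvages deoxycytidine, was the lowest (25.8 and 13.1 FPKM, -0.93), and the licensing inhibitor Gmnn stood at 44 and 28.8 (-0.60). Of 13 S-phase repair and checkpoint genes, 0 passed the rule, 13 were below 0 and the median was -0.34. Of 42 further mitosis genes, 0 passed the rule, 39 were below 0 and the median was -0.21. In untreated cells over time, 41 of those 42 mitosis genes were above 0 (background 64.6%) with a median of 0.27. At 1 h with IL-33 and at both times with IL-4, 0 genes of these 3 lists passed the rule. Over all genes, 2.36% were higher and 0.669% lower at 1 h with IL-33, and at most 0.646% in either direction with IL-4.

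The regulators upstream moved in both directions. Of 28 G1 cyclins, CDKs, RB family and E2F regulators, 1 was higher after 4 h of IL-33 (background 4.15%), the G1 kinase gene Cdk6 (4.51 to 13.7 FPKM, 1.41). In that list 0 were lower (background 1.38%), 15 were above 0 and 13 below (background 53.5% below), and the median was 0.01. Cdk6 was higher at 1 h as well (4.68 to 11.9, 1.18), 1 of 27 compared (background 2.36%). Among the 13 below 0 at 4 h, Tfdp1, the DNA-binding partner of E2F, stood at 142 and 77.5 (-0.87). Cyclin D3 (Ccnd3) stood at 136 and 82.4 (-0.71), and Cdk4 changed by -0.49. Foxm1 and Mybl2, which act on mitotic promoters, changed by -0.22 and -0.21. Of 16 CDK inhibitors and antiproliferative genes compared, 2 were higher (background 4.15%) and 1 lower (background 1.38%) at 4 h, with a median of 0.14. Higher were Gadd45b, a stress gene that binds CDK1, PCNA and p21 (48.8 to 215, 2.12), and Cdkn2b, the CDK4 and CDK6 inhibitor p15 (18.6 to 72.3, 1.90). The antiproliferative gene Tob1 was lower (51 to 20.8, -1.25). Cdkn1a (p21) stood at 33.9 and 68.1 (0.99), just short of the rule, and Cdkn1b (p27) at 77.7 and 45.5 (-0.76). At 1 h Gadd45b (2.88), Gadd45a (1.59) and Cdkn1a (1.03) were higher (background 2.36%) and Tob1 (-1.22) was lower (background 0.669%). With IL-4, 0 genes of either list passed the rule at either time, beside at most 0.646% of all genes in either direction.

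**Figure D5:**
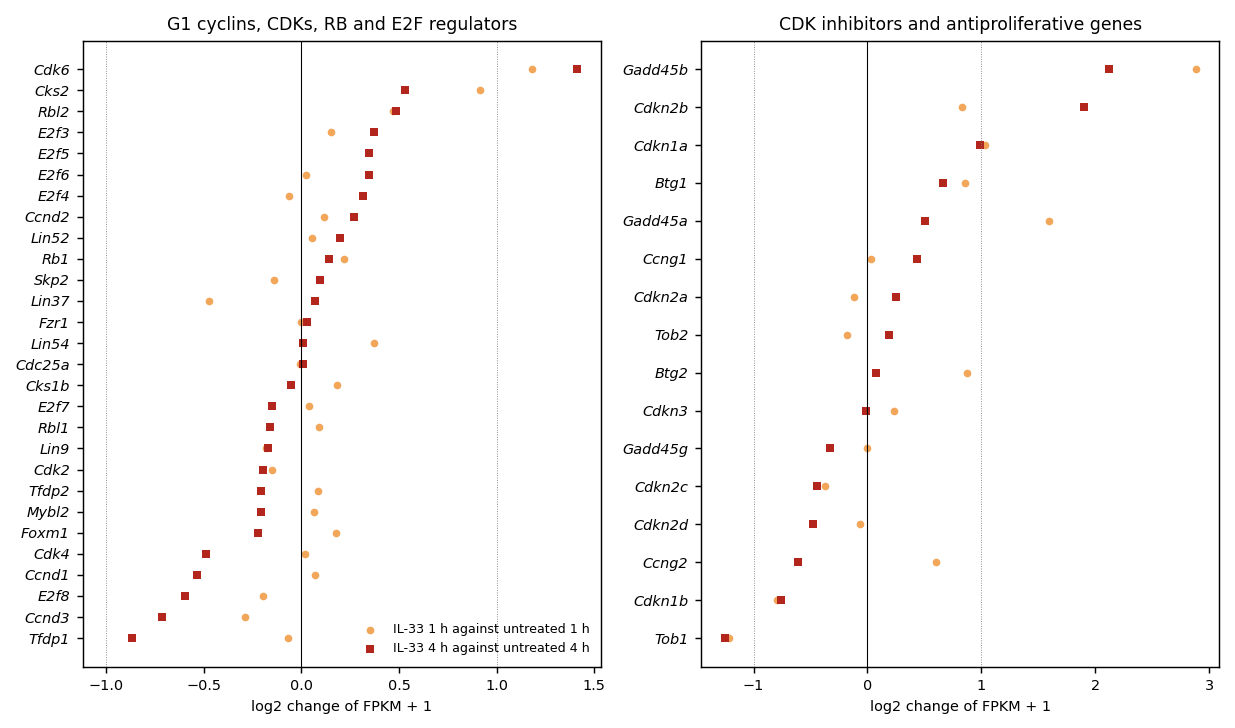
Log2 change with IL-33 at 1 h (orange circles) and 4 h (red squares) for the G1 regulators (left) and the CDK inhibitors and antiproliferative genes (right), ordered by the 4 h change; dotted lines mark the rule of 1 and -1. Cdk6 is the one G1 regulator past the rule at 1.41, and Gadd45b and Cdkn2b lie on the right at 2.12 and 1.90.

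Genes listed as markers of other cells moved in IL-33 4 h cells too. Over all genes, 53.5% were below 0 there, 4.15% were higher and 1.38% lower. Of 8 neutrophil precursor markers 7 were below 0 (median -0.29), with a summed level of 1002 FPKM untreated and 875 with IL-33, and Elane, a protease of dividing promyelocytes, at 36 and 20.5 (-0.78). Of 6 mast cell and basophil markers compared 5 were below 0 (median -0.37, sums 356 and 386), with Mcpt4 listed at 0. The 5 progenitor markers compared had a median of -0.02, and all 10 summed to 105 and 114. The 4 erythroid and megakaryocyte markers compared were all below 0 (median -0.42, sums 252 and 217), with Car1 listed at 0 and Epor lower (-1.22). Of 5 lymphoid markers compared 4 were below 0 (median -0.32, sums 28.2 and 21.2). Of 8 monocyte and macrophage markers 3 were higher, Cd14, Csf1r and Mrc1, and 2 were below 0, the lowest at -0.75. These 8 markers summed to 555 and 1122. The 9 eosinophil markers had a median of -0.10, with 7 below 0. Their changes ran from -0.89 for the IL-5 receptor gene Il5ra (24.7 and 12.9) up to 0.72. The IL-33 4 h library was also the deepest by estimate, at 28100000 reads beside 15000000 for its untreated partner on the same scale. The part of these cell markers and of depth in the replication result was not tested.

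The authors' deposited list of 1593 genes held 7 of the 50, beside 7.04% of all genes, namely Bub1, Cdc45, Cdt1, E2f2, Mad2l1, Rrm2 and Uhrf1. By comparison, the authors' deposited list marked 3 of the 50 with IL-4 at 1 h (background 2.87%), 1 with IL-4 at 4 h (background 2.82%), 3 with IL-33 at 1 h (background 2.87%) and 3 with IL-33 at 4 h (background 2.64%). These shares are over all 22548 symbols, of which 10614 were at 1 FPKM or more in untreated 4 h cells. All 50 genes were at that level there, so the shares are not like for like and show no excess of marks. In the authors' deposited list E2f2 (-1.24) and Cdt1 (-1.13) were marked at 4 h with IL-33, and Rrm2 (0.98) and Mad2l1 (0.88) at 1 h. The q-values of the authors' deposited tables, which compare the reads of 2 libraries and not conditions, were 0.00729 for E2f2 and 0.0203 for Cdt1 at 4 h, and 0.00256 for Rrm2 and 0.00400 for Mad2l1 at 1 h. For the 37 genes with a single transcript, those 4 were the only ones under 0.05 in the authors' deposited tables, with 0 in either IL-4 table. Uhrf1 was marked in all 4 comparisons of the authors' deposited list at log2 changes from -0.50 to 0.18, and Bub1 (-0.10) and Cdc45 (-0.16) were marked at 1 h with IL-4. These 3 genes have several transcripts each, and the marks stand beside small changes of the summed level.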

How the data were processed

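RNA of 6 libraries, 1 per group, was read from 4 tables of transcripts that the authors deposited, each pairing 1 treated library with its untreated control. The values are FPKM, which the authors computed with TopHat 1.4.1 and Cuffdiff 1.2.1 on build mm9, per the submitters' processing notes. The p-value and q-value columns the authors deposited, per the file headers, test the reads of 2 libraries, and only q-values of single-transcript genes are printed. The authors also deposited a list of 1593 genes with log2 fold changes, per the file headers. The planned analysis took values to be per gene. They turned out to be per transcript, so transcripts of a symbol were summed. For symbols at several loci the locus with the highest FPKM was kept, and none of the 50 genes was such a symbol. The 50 genes and every list were chosen with earlier results of these data known, so no list is independent support for a direction.

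Change is log2((treated + 1)/(untreated + 1)), a scale that understates the change of low genes, with a filter of 1 FPKM in either library. Column names were matched to samples by cytokine and time. Estimated reads take as 1 read the commonest low value of FPKM times transcript length (GENCODE M21) among single-transcript genes. That this value is 1 read was assumed. The exact 95% Clopper-Pearson intervals rest on these estimates. The change and call code was tested on simulated data. Python 3.11.15, pandas 2.3.3, numpy 2.4.6 and scipy 1.17.1 were used. All 50 genes could be named. Levels in all 6 libraries were planned for up to 4 genes of highest untreated level per role and for genes past the rule, and those of other members were added after their values were seen. In each comparison the 5 largest changes in each direction were named among genes at 5 FPKM or more. Pathway genes past the rule were named, up to 4 per list and direction, and up to 3 markers per cell list by level. Other genes named in a list were chosen after their values were seen. The sources used here do not give trimming, the RefSeq release or the use of strand.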

Additional observations from a re-analysis of the deposited data

How the results depend on the processing

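No paired analysis was possible because each group has 1 library, and no library could be left out for the same reason. Pseudocount, filter, limit of size, transcript choice, centring, the untreated library and the split of the genes were each changed in turn. Counts and medians of the 50 genes kept their value within 1.5 times or 0.1 log2 in 181 of 199 such results. Some of the 181 could not move, since all 50 genes passed the filter and lifting it leaves their values the same. The tally is therefore no measure of stability. At a limit of 1.5-fold, IL-33 gave 10 lower genes and 1 higher gene at 4 h and 2 higher genes at 1 h, and untreated 4 h against 1 h cells gave 2 higher and 1 lower. For IL-33 against IL-4, 2 were higher at 1 h (4.73% of all genes), and at 4 h 11 were lower (6.94%) and 1 higher (6.98%). With a pseudocount of 0.1, 1 gene was higher for IL-33 against IL-4 at 1 h. With the untreated library of the other time, the medians of the 50 and of the mitosis genes were -0.17 and -0.37 for IL-4 at 1 h and 0.19 and 0.38 for IL-4 at 4 h. They were -0.056 and -0.27 for IL-33 at 1 h, where 1 gene was higher, and -0.15 and 0.17 for IL-33 at 4 h. In that setting Cdt1 changed by -0.83 at 4 h, Mcm6 by -1.01 at 4 h and Rrm2 by 1.26 at 1 h. These shifts follow from the difference between the untreated libraries. The median of the replication genes with IL-33 at 4 h lay between -0.52 and -0.41 in all settings run. Depth limits Chek1, Gins1 and Ccne1 most, which had the fewest estimated reads in untreated 4 h cells (67, 99 and 118).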
